A study of Arabidopsis thaliana with 48 samples.

Results

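The evening complex and LNK genes of Arabidopsis thaliana were followed as 6 rows of a deposited table of 26988 genes. They were found by locus number: ELF3 (AT2G25930), ELF4 (AT2G40080), LUX (AT3G46640, listed in the table as PCL1), BOA (AT5G59570), LNK1 (AT5G64170) and LNK2 (AT3G54500). All 6 passed the filter on low counts, which left 19037 genes for testing. Poly(A) RNA from the parts of the seedlings above the hypocotyl was sequenced in 48 libraries, in 24 groups of 2. The groups crossed 3 genotypes, 2 watering regimes and 4 times of day. The genotypes were wild type, ecotype Columbia (Col-0), and the mutants gi-2 and aba1-6, which the labels also give as Columbia. Normally watered pots held 80 to 90% relative soil water content, and drought pots 30% from soon after germination. Plants were 3 weeks old and had grown in short days of 8 h light and 16 h dark. They were harvested 1 h and 8 h after lights on (ZT1 and ZT8, zeitgeber time) in their last short day, or at ZT12 and ZT16 after the light had been prolonged beyond ZT8. Each library pooled about 50 seedlings from 3 pots, so a library is a pool and not a plant. Each mutant was 1 line, and no rescued line was among the samples.

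The evening complex is a nuclear assembly of ELF3, ELF4 and LUX that represses transcription in the evening and night. ELF3 is its scaffold, ELF4 a small partner protein, and LUX the MYB-like protein that binds DNA. BOA, also called NOX, is the closest relative of LUX and can take its place in the complex. LNK1 and LNK2 are co-activators that bind REVEILLE proteins such as RVE8, and that promote the expression of evening genes. Known targets of the complex include PRR9, PRR7, GI, PIF4 and PIF5. GI, the gene mutated in gi-2, encodes GIGANTEA, a clock and flowering protein. ABA1, mutated in aba1-6, encodes zeaxanthin epoxidase, an early enzyme in the making of the drought hormone abscisic acid.

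In the TAIR10.1 annotation of RefSeq, ELF3 lies at chr2:11058944-11063324 on the plus strand and ELF4, which has 1 exon, at chr2:16734294-16734953 on the minus strand. LUX lies at chr3:17183042-17186959 on the plus strand and BOA at chr5:24003888-24007844 on the plus strand. LNK1 lies at chr5:25672466-25676823 and LNK2 at chr3:20175370-20179070, both on the minus strand. The 250 bases before the annotated start were searched on both strands for 4 motifs, and matches are given for 5 of the 6 genes. These were the evening element (AAATATCT), the CCA1-binding site (AAAAATCT), the LUX-binding site (GATACG or GATTCG) and the G-box (CACGTG). The promoters of LUX and BOA, which hold an evening element, are shown because both genes rise from ZT1 to ZT8, and because BOA carries the lower levels in gi-2 described below. Capitals mark the motifs on either strand, and each sequence is read 5′ to 3′ on the strand of its gene, from chr3:17182792-17183041 (plus) for LUX and chr5:24003638-24003887 (plus) for BOA.
LUX: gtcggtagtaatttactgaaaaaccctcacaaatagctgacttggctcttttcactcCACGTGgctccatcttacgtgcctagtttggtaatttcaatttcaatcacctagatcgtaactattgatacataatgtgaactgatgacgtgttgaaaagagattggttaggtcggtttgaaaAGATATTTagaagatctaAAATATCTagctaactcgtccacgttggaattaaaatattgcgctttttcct
BOA: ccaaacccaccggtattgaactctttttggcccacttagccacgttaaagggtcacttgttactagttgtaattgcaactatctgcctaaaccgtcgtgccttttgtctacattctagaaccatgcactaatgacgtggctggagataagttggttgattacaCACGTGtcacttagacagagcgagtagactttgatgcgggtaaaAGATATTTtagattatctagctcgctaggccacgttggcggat
The LUX window holds 2 evening elements and a G-box, and the BOA window 1 evening element and a G-box. The windows of ELF3 and LNK2 hold 1 LUX-binding site (GATACG) each, and the LNK1 window, which overlaps AT5G64180, holds none of these letters. No printed motif overlaps another. Over all 27443 promoter windows of this length, 4.79% hold the evening element, 6.69% the CCA1-binding site, 12.1% the LUX-binding site and 6.49% the G-box. A match is a string of letters and was not tested as a binding site.

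Library totals ran from 1920012 counts, in wild type normal ZT12 replicate 1, to 26925706. The partner of that lowest library held 18982267 counts. The next lowest total was 2289812, in wild type drought ZT16 replicate 2. GI was counted in each gi-2 library: under normal watering it stood at 33.7 and 37.7 CPM (counts scaled to library size) at ZT1, where wild type had 77.2 and 67.8. It was called lower in gi-2 than in wild type at ZT1 and ZT8 and higher at ZT12 and ZT16, in both regimes. ABA1 was likewise counted in each aba1-6 library, from 68.8 to 654 CPM. What either allele does to its own transcript is not given in the sources used here. One gi-2 drought ZT16 library, replicate 2, has a genotype field that reads wild type and was grouped by its title; GI stood there at 56.1 CPM, beside 54.3 in its partner and 22.8 and 13.9 in wild type. Leaving it out ended none of the member calls between genotypes at single times or in the average over the day. Among the steps between neighbouring times it ended the LNK1 fall from ZT12 to ZT16 in gi-2 under drought, then at a log2 fold change of -0.53. Of the tests of the daily course it ended that of ELF3 in gi-2 against wild type under normal watering, which does not compare this library. The leaf markers RBCS1A, CAB1 and RCA were at 1576 CPM or more in each library. Of the root markers, PYK10 stood between 394 and 1344 CPM, while NRT2.1, COBL9 and CASP1 stayed at or under 25.0 CPM. The floral markers AP1, AP3, PI and SEP3 did not pass 4.29 CPM in any library. In such bulk samples fewer cells of a type and less RNA per cell cannot be told apart. Replicates are given as biological in the labels.

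The evening complex genes were low in the morning and high from ZT8, and the LNK genes ran the other way. Levels are given as CPM after TMM scaling, replicate 1 first, and a gene was called changed when the adjusted p of edgeR's quasi-likelihood test, over all tested genes, was under 0.05. In normally watered wild type, ELF3 stood at 13.7 and 7.55 CPM at ZT1, at 70.0 and 79.5 at ZT8, at 82.9 and 93.8 at ZT12 and at 82.9 and 82.9 at ZT16. ELF3 thus reached its plateau by ZT8 and held it through the extended light. ELF4 went from 0.325 and 0 CPM at ZT1 to 45.8 and 66.1 at ZT8, then to 29.7 and 38.0 at ZT12 and 22.4 and 25.8 at ZT16. LUX went from 2.60 and 1.65 CPM to 85.8 and 81.3, then 45.3 and 53.3, and 28.4 and 23.96. Both peaked at ZT8, where their libraries lie above those of the 3 other times. BOA, the LUX relative, rose later, from 0 and 0.274 CPM at ZT1 and 5.34 and 7.04 at ZT8 to 12.5 and 23.6 at ZT12 and 11.1 and 11.4 at ZT16. At its highest group mean in normally watered wild type BOA reached 4.94 CPM per kb of annotated exon, against 21.3 for LUX, 32.1 for ELF3 and 90.4 for ELF4.

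The co-activator genes were highest at ZT1. LNK1 stood at 318 and 345 CPM at ZT1, 76.1 and 81.0 at ZT8, 28.1 and 37.0 at ZT12 and 9.39 and 8.71 at ZT16 in normally watered wild type. LNK2 stood at 722 and 958 CPM at ZT1, and at 23.4 and 29.7, 5.21 and 9.56, and 6.88 and 15.1 at the later times. LNK2 was thus at its lowest by ZT12, while LNK1 was still falling at ZT16. LNK1 overlaps AT5G64160 on the other strand, whose group means were 8.73 to 13.5 CPM, near the ZT16 level of LNK1 in wild type and aba1-6; reads of the 2 genes cannot be told apart without strand. LUX overlaps AT3G46650 (0.532 to 10.3 CPM), ELF3 ALPHA-VPE (0.21 to 2.26) and LNK2 RPB5E (0 to 0.567). The highest means in normally watered wild type were 124 CPM per kb of exon for LNK1 and 287 for LNK2. The daily course was called for the 6 members in each of the 6 genotype and watering combinations, 36 of 36 tests. The course of BOA in gi-2 under drought was lost without gi-2 drought ZT1 replicate 1 (edgeR adjusted p = 0.0952) or replicate 2 (0.0516). This is to be read against a background in which 38.2% of all tested genes were called in normally watered wild type and 40.1% in wild type under drought. The background was 26.2% and 28.7% in gi-2, and 36.2% and 38.7% in aba1-6, for the same regimes.

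**Figure D1:**
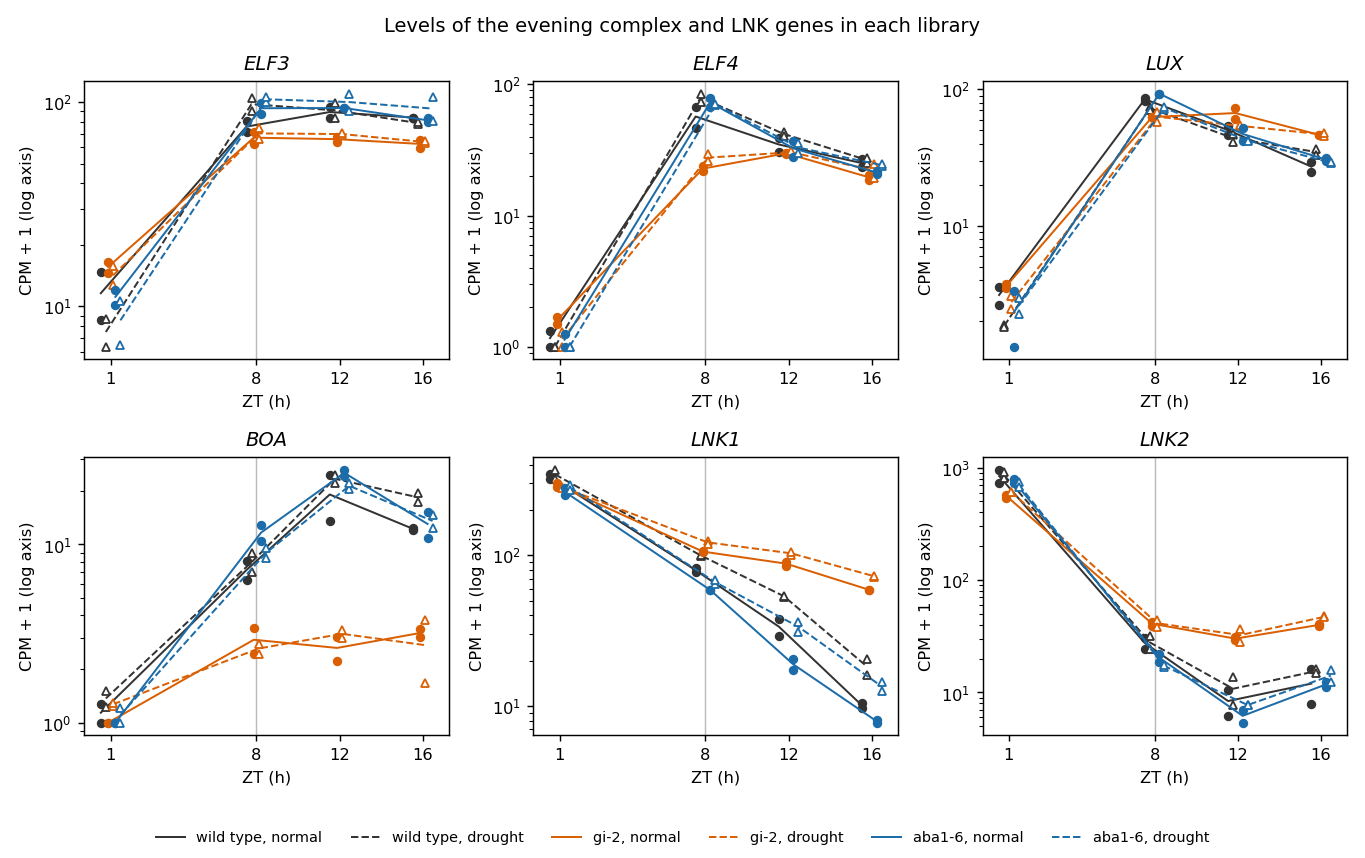
Level of each gene (CPM + 1, log axis) against hours after lights on; points are single libraries, lines join the means of 2, filled circles and solid lines are normal watering, open triangles and dashed lines drought, and the grey line marks ZT8, after which the light was prolonged. The orange gi-2 lines lie lowest for BOA from ZT8 on and highest for LNK1 and LNK2 from ZT8 on.

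Neighbouring times were then compared. From ZT1 to ZT8 each member changed in each combination, 36 of 36 tests, where 29.2% of all tests of this step were called over all genes. The BOA rise in gi-2 under drought was lost without gi-2 drought ZT1 replicate 1 (edgeR adjusted p = 0.0721). From ZT8 to ZT12, the first hours of extended light, 20 of 36 tests were called, against a background of 7.31%. ELF4 and LUX fell in this step, BOA rose and both LNK genes fell, in wild type and aba1-6 under both regimes. In normally watered wild type the log2 fold changes from ZT8 to ZT12 were -0.69 ± 0.18 (SE) for ELF4, -0.72 ± 0.15 for LUX, 1.63 ± 0.31 for BOA, -1.20 ± 0.13 for LNK1 and -1.62 ± 0.24 for LNK2. Without wild type normal ZT12 replicate 2 the BOA rise was lost (edgeR adjusted p = 0.247), as was that in aba1-6 without normal ZT8 replicate 1 (0.0742). The ELF4 fall was lost without wild type normal ZT12 replicate 1 (0.0866), ZT8 replicate 2 (0.353) or the 2 libraries of lowest total (0.0738), and with only the compared libraries (0.0975). ELF3 was called in 0 of 6 combinations by edgeR and by DESeq2, and 0 had an unadjusted edgeR p under 0.05. In gi-2, 0 of 12 tests were called by edgeR and by DESeq2, with 4 at an unadjusted edgeR p under 0.05, while 20 of 24 were called in wild type and aba1-6. The 7.31% is pooled over the 6 combinations. The share of all genes called in gi-2 alone is not given here, so the 0 of 12 cannot be set apart from gi-2 as a whole. From ZT12 to ZT16, 11 of 36 tests were called against a background of 1.08%. LNK1 fell in each of the 6 combinations, LUX in normally watered wild type and aba1-6, and ELF4 in wild type under drought, while LNK2 rose in aba1-6 under both regimes. Of these, the LNK1 fall in wild type and aba1-6 was lost under no alternative. The LNK1 fall in gi-2 was lost without any of the 4 gi-2 libraries compared under normal watering (edgeR adjusted p = 0.06 to 0.161) and under drought (0.247 to 0.498), and under drought also with library totals alone (0.0901) and no filter (0.0535). The LUX fall was lost without wild type normal ZT12 replicate 2 (0.0812) in wild type, and in aba1-6 without normal ZT12 replicate 1 (0.423), ZT16 replicate 1 (0.27) or ZT16 replicate 2 (0.171), or with only the compared libraries (0.148). The ELF4 fall was lost under 15 alternatives, with edgeR adjusted p from 0.05 to 0.224. The LNK2 rise was lost without 3 of the 4 aba1-6 libraries compared under normal watering (0.0665 to 0.416) and without any of the 4 under drought (0.0699 to 0.411), there also with library totals alone (0.106).

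In gi-2, BOA was lower than in wild type from ZT8 on, ELF4 was lower at ZT8, and LNK1 and LNK2 were higher at ZT12 and ZT16. Both LNK genes still fell over the day in gi-2, LNK1 from a mean of 291 CPM at ZT1 to 57.9 at ZT16 and LNK2 from 558 to 29.1 at ZT12 under normal watering. Of 24 member and time tests under normal watering, 9 were called, 5 higher and 4 lower than wild type. Under drought the counts were also 9, with 5 higher and 4 lower. Over all genes and the same 4 times, 2.06% of tests were called higher and 1.24% lower under normal watering, and 4.51% and 3.18% under drought. Both regimes were compared with their own wild type libraries, so these counts share no library.

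From ZT8 on, BOA was the member with the lowest levels in gi-2. Its gi-2 libraries held 1.43 and 2.40 CPM at ZT8, 2.03 and 1.23 at ZT12 and 2.01 and 2.36 at ZT16 under normal watering, and 0 at ZT1 in both. Under drought they held 1.44 and 1.78 at ZT8, 1.99 and 2.31 at ZT12 and 2.78 and 0.664 at ZT16. The drought wild type had 6.00 and 7.91, 23.6 and 21.1, and 16.3 and 18.5 CPM at these times, so no gi-2 library overlapped wild type from ZT8 on. The log2 fold changes of gi-2 against wild type were -1.73 ± 0.39 at ZT8 (edgeR adjusted p = 0.0113), -3.62 ± 0.38 at ZT12 (7.27e-09) and -2.34 ± 0.33 at ZT16 (2.92e-06) under normal watering. Under drought they were -2.14 ± 0.37, -3.34 ± 0.35 and -3.21 ± 0.38 (edgeR adjusted p = 1.45e-04, 2.06e-09 and 5.34e-08). The ZT8 call under normal watering was lost without gi-2 replicate 1 (edgeR adjusted p = 0.293) or wild type replicate 2 (0.235). The BOA gene model overlaps that of UGT76E1 on the other strand, which had group means between 0 and 3.28 CPM. Whether counting used the strand is not given in the sources used here, so at the gi-2 levels of BOA reads of the 2 genes cannot be told apart. UGT76E1 itself was not called between gi-2 and wild type at any time in either regime (edgeR adjusted p = 0.372 to 0.862). At such low levels this does not show that it was unchanged. AT3G46650, which overlaps LUX, was called lower in gi-2 at ZT8 under drought (log2 fold change -1.65, edgeR adjusted p = 0.0414). Averaged over the day it was lower in both regimes (0.0184 and 2.83e-05), and ALPHA-VPE, which overlaps ELF3, was higher under normal watering (0.000402). AT5G64160 was not called, and RPB5E was not tested.

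ELF4, the small partner of ELF3, was at 22.8 and 20.8 CPM in normally watered gi-2 at ZT8, where wild type had 45.8 and 66.1. Under drought the gi-2 libraries had 28.3 and 25.0 CPM at ZT8 and the wild type 72.4 and 84.0. The groups did not overlap in either regime. The log2 fold changes at ZT8 were -1.38 ± 0.19 (edgeR adjusted p = 5.48e-06) and -1.54 ± 0.18 (6.80e-08). At ZT12 gi-2 had 29.2 and 28.5 CPM, close to 29.7 and 38.0 in wild type, and the ZT12 and ZT16 tests were not called. In gi-2 the highest ELF4 mean was at ZT12 rather than ZT8, though the step between these times was not called. ELF4 was at or near 0 at ZT1 in each genotype, with 0 to 17 counts over the 2 libraries of a group, so no fold is given there.

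LUX, the DNA-binding member, was higher in gi-2 late in the extended light. At ZT16 under normal watering it stood at 45.6 and 45.5 CPM in gi-2 and at 28.4 and 23.96 in wild type, a log2 fold change of 0.80 ± 0.16 (edgeR adjusted p = 6.08e-04). Under drought at ZT16 the values were 44.8 and 46.6 against 35.5 and 31.9 CPM, a log2 fold change of 0.42 ± 0.16 that was not called (0.112). At ZT8 LUX leaned the other way under normal watering, with 62.0 and 61.3 CPM in gi-2 against 85.8 and 81.3, but the difference of -0.44 ± 0.15 was not called (edgeR adjusted p = 0.191). ELF3, the scaffold, had 62.9 and 66.7 CPM in gi-2 at ZT12 and 58.3 and 64.4 at ZT16 under normal watering. All 4 lie under the wild type libraries of those times, yet the log2 fold changes of -0.46 ± 0.17 and -0.43 ± 0.16 were not called (edgeR adjusted p = 0.125 and 0.125). At ZT1 under drought ELF3 was higher in gi-2, with 11.7 and 14.7 CPM against 7.64 and 5.35, a log2 fold change of 1.02 ± 0.23 (edgeR adjusted p = 0.00340). That call was lost without gi-2 replicate 2 (0.0978) or wild type replicate 2 (0.154). ELF3 thus spanned a smaller daily range in gi-2, where its highest group mean was 4.52 times the lowest under normal watering and 5.25 times under drought, against 8.33 and 14.9 in wild type.

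LNK1 in gi-2 stood at 84.0 and 89.9 CPM at ZT12 and 58.2 and 57.6 at ZT16 under normal watering. Wild type had 28.1 and 37.0, and 9.39 and 8.71, so the gi-2 libraries lay far above it. The log2 fold changes were 1.35 ± 0.13 at ZT12 (edgeR adjusted p = 1.90e-10) and 2.67 ± 0.14 at ZT16 (6.35e-18). Under drought LNK1 had 99.99 and 104 CPM at ZT12 and 70.9 and 72.0 at ZT16 in gi-2, with log2 fold changes of 0.96 ± 0.12 and 1.99 ± 0.14, both called. LNK2 in gi-2 stood at 29.9 and 28.3 CPM at ZT12 and 40.1 and 37.6 at ZT16, against 5.21 and 9.56, and 6.88 and 15.1, in wild type. These are log2 fold changes of 1.73 ± 0.24 (edgeR adjusted p = 4.45e-06) and 1.84 ± 0.22 (1.71e-07). The LNK2 values under drought were 1.61 ± 0.24 and 1.64 ± 0.23, both called. At ZT1 LNK2 leaned lower in gi-2, with 575 and 541 CPM against 722 and 958 in wild type, but the test did not pass (log2 fold change -0.59 ± 0.18, edgeR adjusted p = 0.0748). With no filter on low counts, LNK2 at ZT1 and ZT8 and ELF3 at ZT1, ZT12 and ZT16 were called too, which made 14 calls under normal watering.

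**Figure D2:**
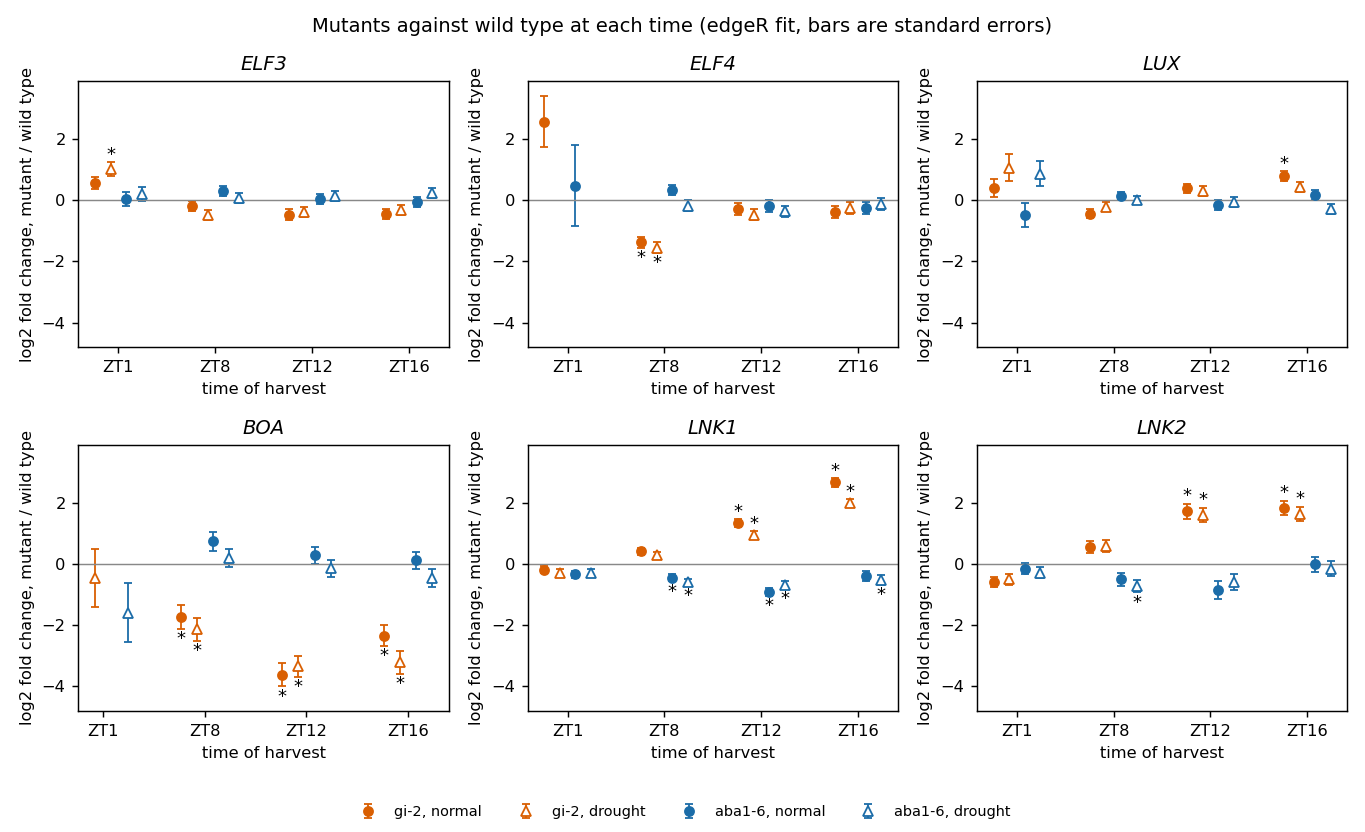
Log2 fold change of each mutant against wild type (vertical axis) at each harvest time. Bars are standard errors worked out from the edgeR F of the fit over 48 libraries. Filled circles are normal watering and open triangles drought. Stars mark adjusted p under 0.05, and contrasts in which a group had no count are left out. The ZT1 points drawn for ELF4 and BOA rest on groups of at most 17 counts. BOA is lower in gi-2 from ZT8 on, and LNK1 and LNK2 are higher at ZT12 and ZT16.

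Whether the course over the day, and not the mean level, differed between gi-2 and wild type was tested for each gene with 3 degrees of freedom. Of 12 tests 9 were called: ELF3, ELF4, LNK1 and LNK2 in both regimes and LUX under normal watering. The ELF3 call under normal watering was lost in 24 of 55 alternatives (edgeR adjusted p = 0.0506 to 0.671, the highest without wild type normal ZT1 replicate 2), the replicate block among them (0.0527). The ELF3 call under drought was lost without gi-2 drought ZT1 replicate 2 (0.0534) or wild type drought ZT1 replicate 2 (0.0631). Over all genes 3.75% were called under normal watering and 4.65% under drought. For ELF4 and BOA the test includes ZT1, where their counts are at or near 0. BOA was called in neither regime (edgeR adjusted p = 0.1735 under normal watering and 0.2334 under drought). With such counts at ZT1 this does not show that its course was kept in gi-2. Averaged over the 4 times, LNK1 was higher in gi-2 by 1.06 ± 0.06 on the log2 scale under normal watering and by 0.74 ± 0.06 under drought, and LNK2 by 0.89 ± 0.11 and 0.84 ± 0.11. BOA was lower in both regimes, by -2.29 ± 0.32 under drought; the call under normal watering, where gi-2 was at 0 at ZT1, was lost without wild type normal ZT1 replicate 2 (edgeR adjusted p = 1). LUX was 0.29 ± 0.10 higher under normal watering, which was not called (edgeR adjusted p = 0.0503) but was called in 20 of 57 alternatives. Under drought it was higher by 0.39 ± 0.13 (edgeR adjusted p = 0.0179). The drought call was lost when ZT1 was left out of the average (0.162), without gi-2 drought ZT1 replicate 1 (0.147) and without wild type drought ZT1 replicate 2 (0.0657). The time-averaged test called 12.7% of all genes under normal watering and 28.7% under drought. Averaged over ZT8, ZT12 and ZT16 only, an average chosen after the ZT1 values had been seen, ELF4 was lower in gi-2 by -0.68 and -0.76 on the log2 scale and ELF3 by -0.36 and -0.39, all called.

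The known targets of the complex were higher in gi-2 in the extended light. All 5 (PRR9, PRR7, PIF4, PIF5 and GI, the gene mutated in gi-2) were called higher at ZT12 and at ZT16, in both regimes. Over all genes 4.50% were called in either direction at ZT12 and 5.73% at ZT16 under normal watering, and 11.5% and 8.04% under drought. The median log2 fold change of the 5 was 1.54 at ZT12 and 3.09 at ZT16 under normal watering, against -0.01 and 0 over all tested genes. PRR7 stood at 86.2 and 102 CPM at ZT12 and 56.1 and 56.9 at ZT16 in gi-2, against 29.2 and 34.1, and 7.01 and 5.76, in wild type. PIF4, which drives growth, stood at 50.2 and 56.8 CPM at ZT16 in gi-2 and at 5.69 and 7.002 in wild type. PRR9 was at 2.37 and 3.13 CPM at ZT12 in gi-2 and at 0 and 0.297 in wild type, so its size is not given. At ZT1 and ZT8 the same list gave fewer calls. GI was the 1 target called at ZT1, where it was lower in both regimes; at ZT8 PRR9 was higher and GI lower under normal watering, and PIF5 was higher as well under drought. Over all genes 1.79% were called at ZT1 and 1.19% at ZT8 under normal watering, and 5.91% and 5.34% under drought.

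Among the close relatives, LNK3 and LNK4 were higher in gi-2 at ZT8, ZT12 and ZT16 in both regimes. Over all genes 1.79%, 1.19%, 4.50% and 5.73% were called at ZT1, ZT8, ZT12 and ZT16 under normal watering. Under drought these shares were 5.91%, 5.34%, 11.5% and 8.04%. LNK4 stood at 12.8 and 11.4 CPM at ZT12 in gi-2 and at 1.04 and 0.892 in wild type under normal watering, a log2 fold change of 3.72 ± 0.32. LNK3 stood at 8.32 and 5.33 CPM at ZT16 and at 0.529 and 0.622 in wild type, a log2 fold change of 3.51 ± 0.46. These wild type levels of LNK4 and LNK3 are low, so the size of each fold is uncertain. At ZT1 the direction was the other: LNK4 was lower under normal watering (92.4 and 88.7 CPM against 140 and 143) and LNK3 under drought (69.7 and 63.3 against 114 and 115). Of the other relatives of the list of 7, of which 6 could be tested, ELF4-L3 was called once, higher at ZT8 under drought (2.20 ± 0.69, edgeR adjusted p = 0.0482). Of the 7 partners and targets of the REVEILLE and LNK proteins, 5 were called at ZT12 in each regime, counting both directions. PRR5, a pseudo-response regulator, was higher in normally watered gi-2 at ZT12 (51.4 and 61.5 CPM against 13.6 and 12.3), and COR28 was lower (4.56 and 5.85 CPM against 13.0 and 16.4). RVE8, the REVEILLE partner of the LNK proteins, was higher at ZT12 under normal watering by 1.005 ± 0.28 on the log2 scale. Of 7 known interactors of the complex, TOC1, which is also in the REVEILLE list, was called lower at ZT8 and ZT12 in both regimes and higher at ZT1 under drought, and COP1 was called higher at ZT8 under drought. The morning repressors went apart at ZT16 under normal watering: CCA1 was higher in gi-2 (10.4 and 10.06 CPM against 1.72 and 2.96) and LHY lower (0.823 and 1.37 CPM against 9.39 and 13.2).

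**Figure D3:**
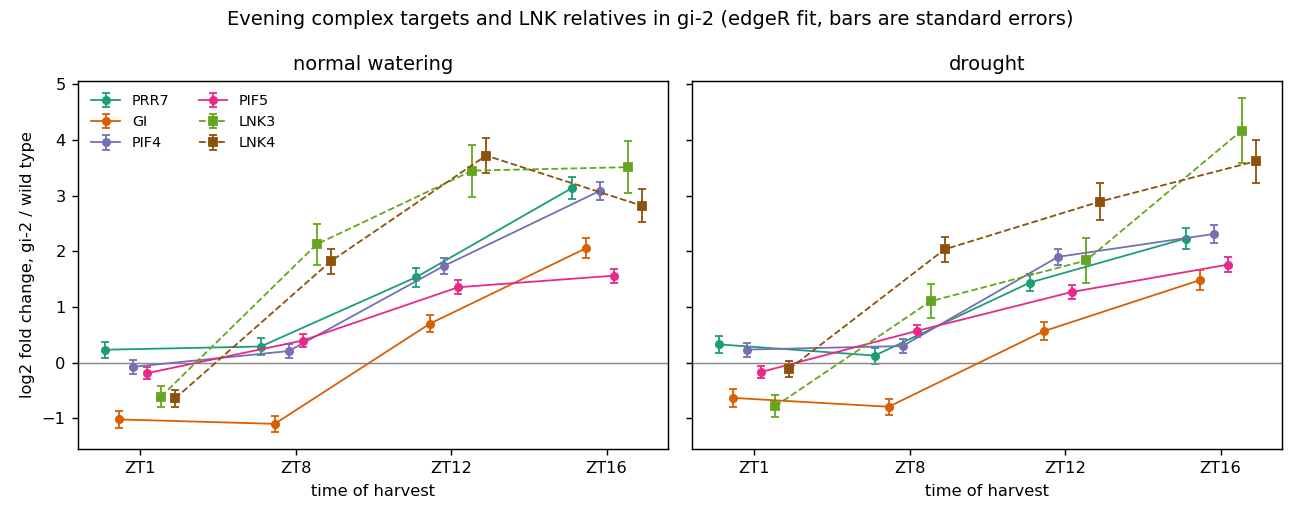
Log2 fold change of gi-2 against wild type (vertical axis) at each harvest time, under normal watering (left) and drought (right). Circles and solid lines are 4 known evening complex targets, squares and dashed lines the LNK relatives LNK3 and LNK4. Bars are standard errors worked out from the edgeR F. PRR9 is left out because wild type was at or near 0 at ZT12 and ZT16. Under normal watering, wild type levels were low too for LNK4 at ZT12 and LNK3 at ZT16. All 6 genes lie above 0 at ZT12 and ZT16.

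In aba1-6, LNK1 was called lower than in wild type at ZT8 and ZT12 in both regimes and at ZT16 under drought, and no evening complex gene was called at any time. Of 24 tests, 2 were called under normal watering and 4 under drought, all lower. Over all genes and the same times, 1.79% of tests were called lower under normal watering and 3.09% under drought. LNK1 stood at 58.0 and 57.6 CPM at ZT8 and 16.3 and 19.4 at ZT12 in normally watered aba1-6, below 76.1 and 81.0, and 28.1 and 37.0, in wild type. The log2 fold changes were -0.45 ± 0.12 (edgeR adjusted p = 0.0165) and -0.91 ± 0.13 (2.91e-05). The ZT8 call was lost with library totals alone (0.0896), with only the compared libraries (0.0518) and without any of the 4 libraries compared, the 2 of aba1-6 and the 2 of wild type (0.0514 to 0.153). The ZT12 call was lost without wild type replicate 2 (0.144). The ZT1 and ZT16 differences under normal watering, -0.33 ± 0.11 and -0.40 ± 0.16, were not called (edgeR adjusted p = 0.0895 and 0.242), nor was that at ZT1 under drought, -0.28 ± 0.11 (0.0994). Under drought LNK1 differed by -0.60 ± 0.11 at ZT8, -0.68 ± 0.12 at ZT12 and -0.52 ± 0.15 at ZT16. The ZT16 call (edgeR adjusted p = 0.0364) was lost without either aba1-6 library (0.064 and 0.269) or without wild type replicate 1 (0.566), and with library totals alone (0.0662), no filter (0.1) and only the compared libraries (0.191). LNK2 was lower at ZT8 under drought, with 15.8 and 16.6 CPM against 23.2 and 30.6, a log2 fold change of -0.73 ± 0.20 (edgeR adjusted p = 0.0217). This was lost without either aba1-6 library (0.177 and 0.115) or wild type replicate 2 (0.38), with library totals alone (0.0723) and with only the compared libraries (0.0648).

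Averaged over the 4 times, LNK1 was lower in aba1-6 by -0.52 ± 0.07 on the log2 scale under normal watering and by -0.52 ± 0.06 under drought, and no alternative ended either call. LNK2 averaged -0.38 ± 0.12 (edgeR adjusted p = 0.0196) and -0.44 ± 0.11. The first was lost without any 1 of 7 libraries (0.0522 to 0.519, the highest without wild type normal ZT12 replicate 2), with library totals alone (0.0936) and with only the compared libraries (0.112), and the second without wild type drought ZT12 replicate 2 (0.104). The time-averaged test called 17.0% of all genes under normal watering and 22.6% under drought. Of the evening complex genes, ELF3 had 86.4 and 98.1 CPM at ZT8 in normally watered aba1-6, above 70.0 and 79.5 in wild type, but the log2 fold change of 0.30 ± 0.16 was not called (edgeR adjusted p = 0.357). LUX at ZT8 under drought overlapped wild type, with 70.9 and 73.3 CPM against 73.5 and 70.1. Among the 5 targets, GI, PIF4 and PIF5 were called lower in the average under normal watering, and PRR7 and GI under drought. The daily course of aba1-6 differed from that of wild type in 0 of 12 tests by edgeR, where 1 of 12 had an unadjusted p under 0.05. Over all genes this test called 0.205% under normal watering and 1.33% under drought.

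LNK1 was the member called between watering regimes at single times and in the average over the day. In wild type it went from 28.1 and 37.0 CPM to 51.9 and 53.0 at ZT12, and from 9.39 and 8.71 to 19.4 and 15.0 at ZT16. The groups did not overlap at either time. The log2 fold changes of drought against normal watering were 0.62 ± 0.13 (edgeR adjusted p = 0.00116) and 0.98 ± 0.16 (1.52e-04). Without wild type drought ZT16 replicate 1 the second was lost (0.0771). In aba1-6 LNK1 went from 16.3 and 19.4 to 34.9 and 30.1 CPM at ZT12, and from 7.07 and 6.75 to 13.4 and 11.5 at ZT16. These are log2 fold changes of 0.84 ± 0.13 (edgeR adjusted p = 1.27e-04) and 0.86 ± 0.15 (6.36e-04), the second lost without aba1-6 drought ZT16 replicate 1 (0.0671) or aba1-6 normal ZT16 replicate 2 (0.0521). In gi-2 LNK1 went from 84.0 and 89.9 to 99.99 and 104 CPM at ZT12 and from 58.2 and 57.6 to 70.9 and 72.0 at ZT16. The drought libraries lay above the normally watered ones at both times, but the log2 fold changes of 0.23 ± 0.12 and 0.30 ± 0.12 were not called (edgeR adjusted p = 0.526 and 0.538).

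These LNK1 tests were the 2 of 24 called at single times in wild type and the 2 of 24 in aba1-6, all higher. Over all genes 2.27% of such tests were called higher in wild type and 0.672% in aba1-6. With the replicate number as a block, since same-numbered wild type libraries deviated together, 4 of 24 were called in wild type: LNK1 and ELF4 were then called at ZT8 too, by 0.33 (edgeR adjusted p = 0.0216) and 0.48 (0.0277) on the log2 scale. In the average over the day the block also called LUX lower under drought in wild type, by -0.33 (0.0323), and LNK2 higher, by 0.23 (0.0284); without it these were -0.32 ± 0.12 (0.0586) and 0.17 ± 0.12 (0.315). In gi-2, 0 of 24 tests were called by edgeR or by DESeq2, 4 had an unadjusted edgeR p under 0.05, and 0.825% of tests were called over all genes. Averaged over the day, drought raised LNK1 by 0.495 ± 0.065 in wild type and by 0.495 ± 0.062 in aba1-6 on the log2 scale. In gi-2 the average was 0.17 ± 0.06 (edgeR adjusted p = 0.0631), and 9 of 57 alternatives called it. Of the 5 targets, PRR7 and GI were called higher under drought in the average in wild type and in aba1-6. The time-averaged drought test called 23.0% of all genes in wild type, 5.17% in gi-2 and 9.32% in aba1-6.

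The drought effect on LNK1 was smaller in gi-2 than in wild type by -0.32 ± 0.09 on the log2 scale (edgeR adjusted p = 0.0144). This test called 6.96% of all genes, and LNK1 was the 1 member called. Without wild type drought ZT16 replicate 1 it was lost (0.0701), and with no filter on low counts as well (0.0525). The drought effect of aba1-6 minus that of wild type was called for 0 of 6 members by edgeR, with 0 of 6 at an unadjusted p under 0.05, where 2.74% of all genes were called. The gi-2 and aba1-6 differences share the wild type libraries.

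**Figure D4:**
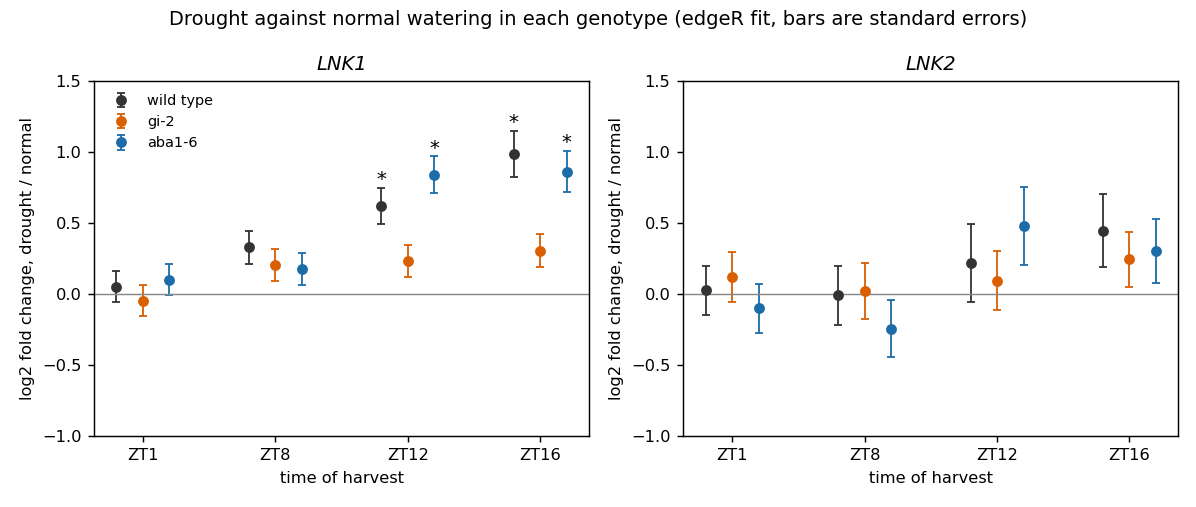
Log2 fold change of drought against normal watering (vertical axis) at each harvest time for LNK1 (left) and LNK2 (right) in wild type, gi-2 and aba1-6. Bars are standard errors worked out from the edgeR F. Stars mark adjusted p under 0.05, which LNK1 reached at ZT12 and ZT16 in wild type and aba1-6 and LNK2 at no time.

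The evening complex genes moved together over the 24 group means. Pearson's r of log2(CPM + 1) was 0.97 between ELF3 and ELF4, 0.95 between ELF3 and LUX and 0.98 between ELF4 and LUX. BOA followed less closely, at 0.83, 0.78 and 0.68 with ELF3, ELF4 and LUX. LNK1 and LNK2 gave 0.86 with each other. These means share the times of day, so each r is a description of a common daily course. Among 6419 genes with a mean of at least 5 CPM and a range of at least 1 in log2 group means, the genes most like ELF3 were IQD5 (r = 0.986), TOC1 (0.984) and YSL8 (0.983). Those most like ELF4 were TOC1 (0.991), AT1G17665 (0.989) and AT5G48250, named BBX8 (0.987). LUX was most like AT1G17665, BBX8 and AT1G07050, all at 0.989 or above. BOA had a less close set, AAE17 (0.960), AT1G55840 (0.958) and AT1G29240 (0.957). LNK1 was most like STO (0.991), CDF3 (0.979) and PIF5 (0.974), the last being a target of the complex. LNK2 was most like CH1 (0.993), AT4G13010 (0.986) and its relative LNK3 (0.984).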

How the data were processed

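The deposited table holds estimated counts per gene for 48 libraries of poly(A) RNA. Bowtie2, RSEM, edgeR and TAIR10 are named, without roles, in the submitters' processing notes, and they do not state whether counting used the strand. All deposited expected counts were rounded to whole numbers; 98.56% already were whole. Genes were tested in R 4.3.3 with edgeR 4.0.16 (quasi-likelihood, TMM, filterByExpr, robust) on 24 group means over all 48 libraries, with 24 residual degrees of freedom and Benjamini-Hochberg adjustment over 19037 genes. DESeq2 1.42.0 was an alternative. Each standard error (SE) is the absolute log2 fold change divided by the square root of its edgeR F. It was not estimated by the fit itself. P-values measure the spread between the pools of a group.

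On data simulated for gi-2 against wild type under normal watering at ZT12 (18943 genes, 1 random draw), 94% of 100 genes changed 2-fold and 100% of 100 changed 4-fold were recovered, and 4.9% of calls were false. Each library was drawn independently, with the spread taken from the trend over all genes, and genes of low mean level were not changed. The draw lacks the pairing of wild type libraries described next, so its rates need not hold for the real contrast. Same-numbered wild type libraries deviated from their group means together in 28 of 28 pairs of groups (r = 0.15 to 0.52); this pairing comes from the correlation, not the labels. In gi-2 6 of 28 and in aba1-6 8 of 28 pairs passed r = 0.1, so numbers were not taken to pair those libraries.

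The genes and lists were chosen with earlier results of these data known. From each other list at most 3 genes were named, those with the largest change among the called, besides members of a list named with its count. The first aba1-6 normal ZT1 library carries no replicate number and was numbered 1. Promoters and gene models come from RefSeq, TAIR10.1; 6 of 6 genes matched by locus number. The promoter sequence of 1 gene is not reported here.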

Additional observations from a re-analysis of the deposited data

Results flagged for a closer look

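The drought effect on LNK1, averaged over the 4 times, differed between gi-2 and wild type by -0.32 on the log2 scale, by a test of the difference itself.

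The daily course differed between gi-2 and wild type by the same kind of test. Under normal watering the edgeR adjusted p was 0.0433 for ELF3, a call lost in 24 of 55 alternatives, 0.000717 for ELF4, 0.00102 for LUX, 5.66e-15 for LNK1 and 6.88e-08 for LNK2. Under drought it was 0.00163 for ELF3, a call lost in 2 of 55 alternatives, 0.00153 for ELF4, 1.56e-11 for LNK1 and 1.06e-06 for LNK2. In each regime the groups were compared with the wild type libraries of that regime.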

How the results depend on the processing

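Results were recomputed under 57 alternatives, 48 of which left out 1 library. Of 42 member calls between genotypes or watering regimes, at single times or averaged, 29 were kept under each alternative, 13 were lost under at least 1, and 0 changed direction. Of the 9 called differences in daily course between gi-2 and wild type, which are not among the 42, those of ELF3 were lost, under normal watering in 24 of 55 alternatives. With no filter on low counts, gi-2 against wild type gave 14 calls rather than 9 under normal watering. With library totals alone, aba1-6 against wild type gave 1 rather than 2 under normal watering and 2 rather than 4 under drought, and with only the compared libraries also 1 and 2. With 1 library left out, the counts ran from 1 to 3 for aba1-6 under normal watering, from 1 to 3 for drought in wild type and from 1 to 2 for drought in aba1-6. With replicate numbers blocked inside each genotype, gi-2 under drought gave 15 calls and aba1-6 under normal watering 5. Drought in wild type gave 4. The block ended none of the 42 calls, but it did end the ELF3 course call under normal watering (edgeR adjusted p = 0.0527). It takes the numbers as shared in gi-2 and aba1-6 too, where the libraries did not pair. The cause of these changes was not tested. Depth limits BOA and ELF4 most, whose ZT1 groups held 0 to 17 counts.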
